A study of Mus musculus with 14 samples.

Results

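The 47 genes described here are a list from the apoptosis machinery and the BCL2 family and do not cover all of it. Their signals were compared between lung tumors that SPC/c-Myc-transgenic animals develop and control lung. The genes were listed by name, with earlier results of these data known. All probe sets whose gene symbol in the annotation is 1 of the 47 were taken, whatever their signals. A probe set is a group of short probes for 1 transcript, and a gene can have several. Of the 47 genes, 41 had at least 1 probe set with no other symbol, 59 probe sets in all, among 12422 probe sets for 8251 genes on the array, and 48 of the 59, for 36 genes, passed the filter on low signals and were tested.

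Small tumors of about 1 mm were hybridised as 3 pools of 3 to 4 tumors, each pool from its own animal. The other tumor groups were 4 middle-sized tumors of 4 to 5 mm and 3 large tumors of at least 10 mm, and the controls were 4 lungs of non-transgenic mice. All tumor-bearing mice were hemizygous for c-Myc under the surfactant protein C (SPC) promoter, which is active in respiratory epithelium, and all mice, controls included, had the CD2F1-(DBA/2xBalb/C) background and were aged 9 to 13 months. Values are signals of the Affymetrix MAS 5.0 software, a linear brightness with a scaling target of 250 per array. The deposited array of middle tumor 3 departs from that target. A signal of 70 is the lower limit that the study set for an expressed gene, there together with a detection call.

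Apoptosis is the ordered self-destruction of a cell. In the intrinsic pathway, BH3-only proteins such as Bid and Bim (gene Bcl2l11) oppose the protective proteins Bcl2, Bcl2l1 and Mcl1, the effectors Bax, Bak1 and Bok permeabilise the outer mitochondrial membrane, and cytochrome c then lets Apaf1 activate caspase-9. In the extrinsic pathway, death receptors such as Fas and Tnfrsf1a recruit the adaptors Fadd and Tradd and activate caspase-8, which Cflar (c-FLIP) restrains. c-Myc is known both to drive proliferation and to sensitise cells to apoptosis.

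The arrays were alike in scale, with 1 exception that touches several members. On 13 arrays the mean without the extremes was 249.96 to 249.97, and 6796 to 7575 probe sets reached 70. On the array of middle tumor 3, 3125 values were listed at or near 0 and were treated as missing. They include all 2445 probe sets of 1 contiguous block of identifiers and 6.82% of the other 9977. The mean of this array without the extremes was 191.7 with those values and 277 without them. The values kept from it were not rescaled in the main comparisons. Missing on this array were 11 probe sets of the 47 genes. Markers of alveolar type II cells, the epithelium in which the SPC promoter is active, were present in every group. Their summed signal was 35931 to 40350 in small, 30577 to 46129 in middle-sized and 27126 to 39743 in large tumors, against 22464 to 32790 in control lungs, and 2 of 6 tested (Muc1 and Sftpb) were higher in tumors. Marker sums leave out middle tumor 3 where a marker was missing there.

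Promoter sequences of RefSeq (GRCm38.p6) were at hand for 39 of the 47 genes, and the 250 bases before the transcription start were searched on both strands for the sequence CACGTG, the canonical E-box that Myc/Max dimers bind, and for the related CACGCG. Of the 30 genes that were tested and had a promoter entry, 1 held CACGTG (Fas, 3.33%), beside 523 of 4944 tested genes with an entry (10.6%). CACGCG was found in 5 of the 30 (Aifm1, Apaf1, Bcl2l1, Bcl2l11 and Birc2, 16.7%), beside 826 of 4944 (16.7%). A match is a description of the letters and not a binding site. The 3 promoters below are shown because they belong to the genes with the largest fitted rise (Cideb), a rise in every tumor (Aifm1) and the only CACGTG among tested members (Fas). Each runs 5′ to 3′ up to the base before the start, and capitals mark CACGTG or CACGCG on either strand. The Cideb sequence lies at chr14:55758425-55758674 on the minus strand and has none. That of Aifm1 lies at chrX:48513564-48513813 on the minus strand, with CACGCG on the opposite strand beginning 59 bases before the start. That of Fas lies at chr19:34290409-34290658 on the plus strand, with CACGTG beginning 110 bases before the start.
Cideb: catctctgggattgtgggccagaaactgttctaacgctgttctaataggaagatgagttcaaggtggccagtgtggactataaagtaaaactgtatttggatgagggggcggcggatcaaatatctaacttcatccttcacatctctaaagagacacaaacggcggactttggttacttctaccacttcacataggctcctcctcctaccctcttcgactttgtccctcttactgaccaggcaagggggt
Aifm1: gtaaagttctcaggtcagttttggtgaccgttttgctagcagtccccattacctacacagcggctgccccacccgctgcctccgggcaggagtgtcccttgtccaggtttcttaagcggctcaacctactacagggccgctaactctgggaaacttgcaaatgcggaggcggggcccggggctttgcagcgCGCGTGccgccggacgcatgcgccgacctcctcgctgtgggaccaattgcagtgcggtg
Fas: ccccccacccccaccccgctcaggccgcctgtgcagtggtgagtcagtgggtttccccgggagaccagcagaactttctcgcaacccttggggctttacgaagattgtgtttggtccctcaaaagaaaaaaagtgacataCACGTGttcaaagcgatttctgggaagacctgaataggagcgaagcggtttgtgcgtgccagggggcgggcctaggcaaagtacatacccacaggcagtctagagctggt

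The first comparison sets all 10 tumors, as the mean of the 3 sizes, against the 4 control lungs, and asks which parts of the machinery differ between tumor and normal lung. Fold changes are log2 values from limma after signals under 70 were set to 70, which understates the change of weakly expressed genes, and a probe set was called at an adjusted p under 0.05 over all 8127 probe sets tested. Of the 48 tested probe sets, 9 were higher in tumors (18.8%), 11 were lower (22.9%) and 28 were not called. Over the whole array 22.7% of the probe sets were higher and 20.8% were lower, so the shares for the apoptosis genes are near those of the array. The median log2 fold change was -0.01 over the 48 probe sets and 0.03 over all 8127. Scaling every array to 1 median in place of the target moved the array's median to 0.14 and the split of called probe sets to 2353 higher and 1384 lower, beside 1842 and 1687.

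**Figure D1:**
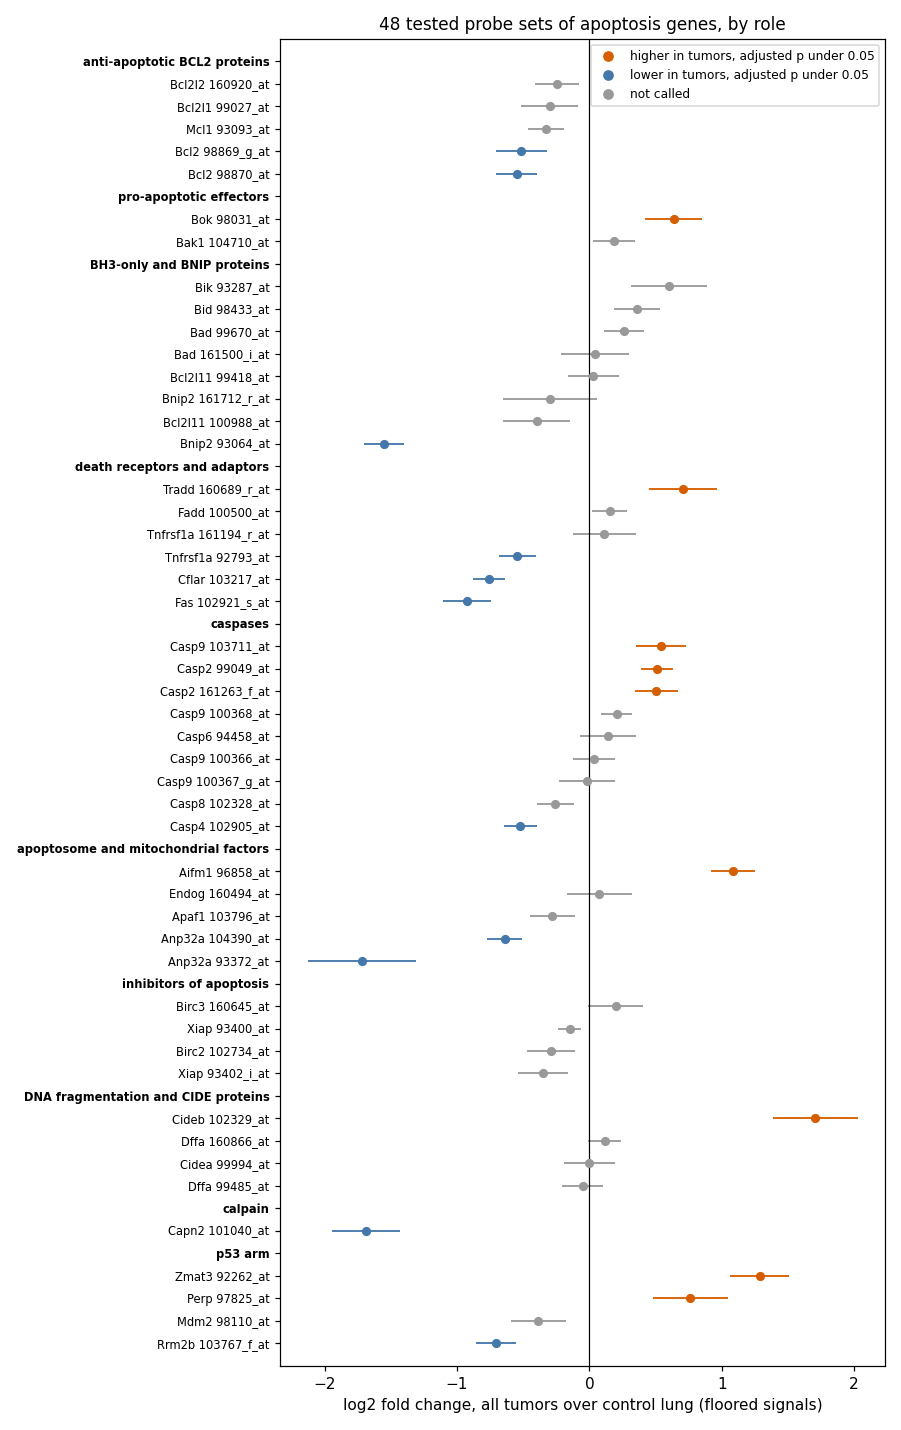
Log2 fold change (horizontal axis, all tumors over control lung, signals set to at least 70) of the 48 tested probe sets, grouped by the role of their gene, with bars of ±1 standard error from limma. The points run from -1.72 (Anp32a) to 1.71 (Cideb), with 9 probe sets higher, 11 lower and 28 not called.

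Among the protective proteins of the BCL2 family, none of 5 probe sets was higher in tumors and 2 were lower, both of Bcl2. At probe set 98870_at, Bcl2 had signals of 88.8, 125 and 109 in small tumor pools, 214, 156, 185 and 137 in middle-sized tumors and 233, 271 and 241 in large tumors, against 213, 226, 241 and 293 in control lungs. The small pools were the lowest, all of them under every other tumor, while the large tumors lay within the range of the control lungs. The log2 fold change over all tumors was -0.55 ± 0.16 (SE, adjusted p = 0.0104). An unpaired t-test, the type named in the study's methods but run here on floored log2 signals, did not call it (unadjusted p = 0.0772). Probe set 98869_g_at of the same gene averaged 85.7 ± 29.0 in tumors and 125 ± 34.9 in control lungs (SD, n = 10 and 4), with a log2 fold change of -0.51 (adjusted p = 0.0408). That call was lost when any 1 of 9 arrays was left out (adjusted p up to 0.166), namely all 3 small pools, middle tumor 2, large tumors 1 and 3, and control lungs 1, 3 and 4, as well as under other settings.

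Mcl1, a short-lived protein that sequesters BH3-only proteins, had a lowest, median and highest signal of 751, 1048 and 1415 in tumors, against 1399.8, 1381, 1233 and 1309.8 in control lungs. It was under every control lung in 9 of 10 tumors, and its log2 fold change of -0.33 had an adjusted p of 0.0653. Without middle tumor 3 it was called lower (log2 fold change -0.38, adjusted p = 0.0115). Bcl2l1, which encodes Bcl-xL, and Bcl2l2, which encodes Bcl-w, had log2 fold changes of -0.30 and -0.25 and were not called.

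The effector Bok was higher in tumors. Its signals were 378, 445 and 573 in small pools, 1056, 447, 671 and 389.8 in middle-sized tumors and 632, 546 and 554 in large tumors, against 327, 299.6, 344 and 428 in control lungs. In 8 of 10 tumors Bok exceeded every control lung, and the log2 fold change was 0.64 ± 0.22 (adjusted p = 0.0267). The call was lost without control lung 1, 2 or 3 (adjusted p up to 0.0887). Bak1, the effector that resides in the mitochondrial membrane, averaged 304 ± 46.3 in tumors and 269.8 ± 44.2 in control lungs (SD) and was not called.

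Of 8 probe sets of BH3-only and BNIP genes, 1 was called, and it belongs to Bnip2, which encodes a protein found by its interaction with Bcl-2 and adenovirus E1B. Bnip2 at 93064_at had signals of 261, 252 and 202 in small pools, 177, 237, 183 and 169.8 in middle-sized tumors and 219, 152 and 146 in large tumors, against 528, 647, 635 and 508 in control lungs. Every tumor was under every control lung, and the fall was of 1.55 ± 0.15 on the log2 scale (log2 fold change -1.55, adjusted p = 1.78e-06), the lowest adjusted p of the 48 probe sets. Its other probe set, 161712_r_at, gave a different picture. There the signals were 269, 248 and 264 in small pools, 590.1, 206 and 143 in middle-sized tumors (missing on middle tumor 3) and 227, 378 and 305 in large tumors, against 281, 242, 253 and 717 in control lungs. The groups overlapped, control lung 4 stood alone at 717, and the log2 fold change was -0.30 ± 0.35 (adjusted p = 0.538). Without control lung 4 it was 0.07 (adjusted p = 0.882). The fall of Bnip2 therefore rests on 1 of its 2 probe sets, and where a single probe set with the highest mean stands for each gene, that is the uncalled 161712_r_at.

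None of the BH3-only genes was called over all tumors on the full set of arrays. Bik, an endoplasmic reticulum BH3-only protein, had a log2 fold change of 0.60 (adjusted p = 0.106; called without middle tumor 4, large tumor 3 or control lung 3), with 18.3, 158 and 199 as the lowest, median and highest tumor signal, against 83.5, 80.3, 140.0 and 29.1 in control lungs. Bid, which links caspase-8 to the mitochondria, had 0.36 (adjusted p = 0.116), and Bad had 0.26 and 0.04 at its probe sets. The probe sets of Bcl2l11 differed in sign. At 100988_at the lowest, median and highest tumor signals were 172, 340.4 and 547, against 532, 492, 467 and 333 in control lungs (log2 fold change -0.40, adjusted p = 0.226). At 99418_at they were 47.5, 107 and 182, against 99.9, 114, 89.8 and 134 (log2 fold change 0.03, adjusted p = 0.92). Neither was called.

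Both death receptors tested were lower in tumors at 1 probe set each, Fas at its single tested probe set and Tnfrsf1a at 1 of 2. Fas, the receptor of Fas ligand, had signals of 45.2, 26.8 and 31.7 in small pools, 31.0, 27.3, 60.0 and 103 in middle-sized tumors and 32.3, 22.5 and 66.4 in large tumors, against 183, 172, 139.9 and 80.7 in control lungs. In 9 of 10 tumors Fas was below 70, and middle tumor 4 was above control lung 4. The log2 fold change was -0.93 ± 0.18 (adjusted p = 0.000809), and against the limit of 70 Fas was at least 2.06-fold lower in small pools and at least 2.06-fold lower in large tumors. A probe set for Fas among the array's control probes, which stayed out of the test, had 46.9, 76.6 and 125 as the lowest, median and highest tumor signal, against 200.5, 207, 185 and 169 in control lungs, with no overlap. Fasl, the ligand, was at or below 7.95 on every array.

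Tnfrsf1a, the main receptor of tumor necrosis factor, was lower at 92793_at, with 491, 355 and 379.7 in small pools, 455, 388, 440.1 and 390.0 in middle-sized tumors and 501, 319 and 419.8 in large tumors, against 651, 684, 501 and 571 in control lungs. Large tumor 1 met control lung 3, and the other 9 tumors were under every control lung (log2 fold change -0.55 ± 0.14, adjusted p = 0.00543). At 161194_r_at the lowest, median and highest of 9 tumors were 24.9, 87.2 and 169, against 68.1, 76.0, 65.6 and 119.6 in control lungs, and the log2 fold change was 0.11 (adjusted p = 0.744).

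Of the proteins that act below the receptors, Cflar, the inhibitor of caspase-8, was lower. It had signals of 89.9, 75.1 and 87.5 in small pools, 86.4, 81.8, 68.8 and 68.9 in middle-sized tumors and 45.9, 69.6 and 85.9 in large tumors, against 149.9, 160.2, 114 and 112 in control lungs. Every tumor was under every control lung (log2 fold change -0.76 ± 0.12, adjusted p = 0.000186). Tradd, the adaptor of Tnfrsf1a, was higher, with 259, 469 and 704 as the lowest, median and highest of 9 tumors, against 259, 247, 515 and 179 in control lungs. The groups overlapped, since only 2 tumors exceeded control lung 3, and the log2 fold change was 0.71 ± 0.26 (adjusted p = 0.0397). The call was lost without small pool 1 or 2, middle tumor 2 or 4, large tumor 2, or control lung 1, 2 or 4 (adjusted p up to 0.156). Fadd was flat across the arrays at 129 to 166 in tumors and 108 to 154 in control lungs (log2 fold change 0.15, adjusted p = 0.374).

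Caspases, the proteases of the pathway, moved in both directions. Casp2, which acts early and is linked to DNA damage, was higher at both probe sets. At 99049_at its signals were 875, 734 and 696 in small pools, 682, 588, 713 and 819 in middle-sized tumors and 1095, 757 and 965 in large tumors, against 547, 627, 519.8 and 532 in control lungs, and 9 of 10 tumors exceeded every control lung. The log2 fold change was 0.51 ± 0.12 (adjusted p = 0.00357) there and 0.51 ± 0.16 (adjusted p = 0.0227) at 161263_f_at, where the call was lost without control lung 2 or 3 (adjusted p up to 0.0783).

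Casp9, the caspase of the apoptosome, was higher at 1 of its 4 probe sets. At 103711_at the signals were 154, 132 and 124 in small pools, 153, 173, 182 and 155 in middle-sized tumors and 153, 205 and 105 in large tumors, against 133, 118, 97.5 and 72.9 in control lungs (log2 fold change 0.54 ± 0.19, adjusted p = 0.0305). The call was lost without small pool 1 or control lung 3 or 4 (adjusted p up to 0.128). The other probe sets had log2 fold changes of 0.21 (100368_at), 0.03 (100366_at) and -0.02 (100367_g_at) and were not called. At 100366_at, for example, the lowest, median and highest tumor signals were 124, 167 and 237, against 178, 153, 138 and 192 in control lungs. At 100367_g_at they were 120.0, 184 and 207, against 144, 141, 136 and 288, and at 100368_at 39.8, 70.5 and 109, against 53.5, 45.2, 67.1 and 60.1.

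Casp4, an inflammatory caspase that senses lipopolysaccharide, was the caspase that was lower. Its signals were 39.1, 41.6 and 20.1 in small pools, 47.2, 18.3, 33.7 and 29.4 in middle-sized tumors and 21.8, 14 and 18.7 in large tumors, against 143, 104, 91.4 and 74.6 in control lungs. All tumors lay below 70 and all control lungs above it. Casp4 was therefore at least 1.48-fold lower in tumors (log2 fold change of the floored signals -0.52, adjusted p = 0.00372). It passed the filter through the control lungs alone. With every tumor set to 70, the fitted value reflects the control lungs only and was -0.52 at every size. Casp1, which processes interleukin-1β, and Casp12, also of the inflammatory group, were too weak to be tested. Casp1 had 18.1, 30.8 and 49.8 as the lowest, median and highest tumor signal, against 79.8, 59.2, 68.3 and 78.0 in control lungs. Casp12 had 9.05, 14.8 and 18.1, against 36.1, 32, 46.4 and 47.1. For both, every tumor was under every control lung. Casp8, the initiator of the extrinsic pathway, and the executioner Casp6 had log2 fold changes of -0.26 and 0.14 and were not called.

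**Figure D2:**
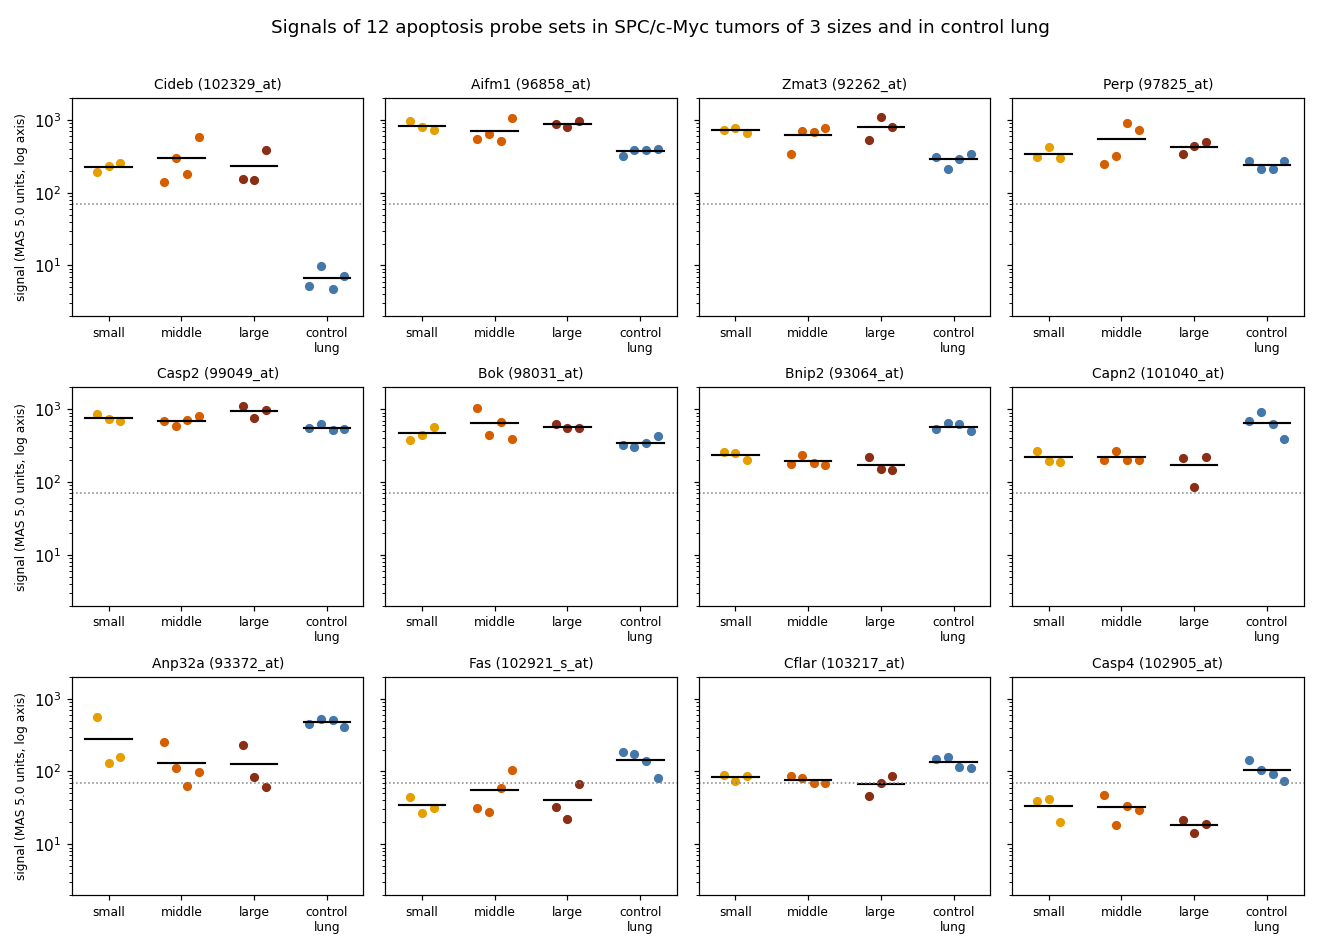
Signals (vertical log axis, MAS 5.0 units) of 12 probe sets on each array, with small, middle-sized and large tumors left of control lung. Points are arrays, bars are group means and the dotted line is the limit of 70. All 10 Cideb points of tumors lie above 138 and those of control lung below 10, while all Bnip2, Capn2, Cflar and Casp4 points of tumors lie below those of control lung.

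Among mitochondrial and apoptosome factors, Aifm1 was higher and Anp32a lower. Aifm1 encodes apoptosis-inducing factor, a flavoprotein that supports respiratory chain assembly and, when released, promotes chromatin condensation. Its signals were 959.6, 795 and 732 in small pools, 549, 644, 519.5 and 1073 in middle-sized tumors and 887, 789.6 and 977 in large tumors, against 319, 381, 388 and 396 in control lungs. Every tumor exceeded every control lung, and the mean of 793 ± 185 in tumors, against 371 ± 35.3 in control lungs (SD, n = 10 and 4), gave a log2 fold change of 1.09 ± 0.17 (adjusted p = 0.000113).

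Anp32a, an acidic leucine-rich nuclear phosphoprotein that helps the apoptosome to activate caspases, was lower at both probe sets. At 104390_at its signals were 506, 616 and 595 in small pools, 606, 661, 568 and 476 in middle-sized tumors and 445, 399 and 309 in large tumors, against 849.7, 800.1, 866 and 619 in control lungs. The log2 fold change was -0.64 ± 0.13 (adjusted p = 0.00135), and 9 of 10 tumors were under every control lung. At 93372_at they were 553, 129 and 156, then 257, 111, 62.8 and 97.7, and 234, 83.7 and 60.8 in the same order of tumors, against 451, 527, 504 and 408 in control lungs. Small pool 1 was above every control lung there and the other 9 tumors below (log2 fold change -1.72 ± 0.41, adjusted p = 0.00356). Apaf1 and Endog, a mitochondrial nuclease, had log2 fold changes of -0.28 and 0.07 and were not called, and Diablo, the antagonist of inhibitor of apoptosis proteins, was at or below 13.4 on every array.

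The inhibitors of apoptosis Xiap, Birc2 and Birc3, which bind caspases or act as ubiquitin ligases, had 4 tested probe sets with log2 fold changes from -0.35 to 0.20, and none was called. Birc5 (survivin), of the same family but outside the genes listed here, was higher in tumors by limma (log2 fold change 1.19, adjusted p = 0.0236). Of the genes of DNA fragmentation, Dffa, the inhibitor and chaperone of the caspase-activated nuclease, had probe sets of unlike sign that were both not called. At 160866_at 9 tumors had 272, 344 and 465 as lowest, median and highest signal, against 294, 385, 302 and 331 in control lungs (log2 fold change 0.11, adjusted p = 0.49). At 99485_at the tumors had 75.9, 138 and 183, against 125, 162, 136 and 142 (log2 fold change -0.05, adjusted p = 0.82).

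Cideb showed the largest rise of the 48 tested probe sets. It belongs to the CIDE family, named for a domain shared with the DNA fragmentation factors, and is known in liver as a lipid droplet protein needed for lipidation of very low density lipoproteins. Its signals were 189.7, 232 and 252 in small pools, 139, 299, 182 and 576 in middle-sized tumors and 154, 151 and 388 in large tumors, against 5.16, 9.81, 4.79 and 7.15 in control lungs. All control lungs were far below the limit of 70, so Cideb was at least 3.66-fold higher in tumors (mean 256 ± 136, SD, n = 10), with a log2 fold change of the floored signals of 1.71 ± 0.32 and an adjusted p of 0.000651. It passed the filter through the tumors alone, and every control lung entered the fit at 70. Middle tumor 4 had the highest signal and middle tumor 1 the lowest. Of 7 tested liver secretory genes, Apob, the protein of those lipoproteins, and Rbp4 were higher, with log2 fold changes of 3.90 and 1.21, and Serpina1b was lower. Ttr, Apoa1, Apoa2, Fgb and Apoh were below 70 on every array, and the part of liver-type genes in the Cideb signal was not tested. Cidea, the CIDE protein of brown fat, was below 70 in 9 of 10 tumors but 171 in middle tumor 1, against 71.4, 69.1, 44.8 and 92.3 in control lungs (log2 fold change 0.00, adjusted p = 0.998). The other 9 tumors lay between 6.66 and 49.4.

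Capn2, the large subunit of the calcium-dependent protease m-calpain, was lower. It had signals of 268, 197 and 191 in small pools, 204, 265, 204 and 199 in middle-sized tumors and 212, 85.9 and 222 in large tumors, against 681, 918, 632 and 396 in control lungs. No tumor reached the lowest control lung, and the log2 fold change was -1.69 ± 0.25 (adjusted p = 9.88e-05). A further probe set, 162112_i_at, was at or below 8.28 on every array.

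Of the genes known as targets or partners of p53, Zmat3 and Perp were higher and Rrm2b was lower. Zmat3, a zinc finger RNA-binding protein, had signals of 721, 773 and 666 in small pools, 342, 715, 691 and 774 in middle-sized tumors and 522, 1105 and 800.0 in large tumors, against 311, 209.7, 292 and 345 in control lungs. Only middle tumor 1 fell within the range of the control lungs (log2 fold change 1.29 ± 0.23, adjusted p = 0.000356). Perp, a membrane protein of desmosomes that p53 induces, had 306, 426 and 302 in small pools, 245, 315, 904 and 732 in middle-sized tumors and 337, 439 and 496 in large tumors, against 273, 215, 212 and 269 in control lungs. Middle tumors 3 and 4 stood above the rest, and the log2 fold change of 0.76 ± 0.28 (adjusted p = 0.0421) lost its call without any 1 of 10 arrays (adjusted p up to 0.111), which were the small pools, middle tumor 4, large tumors 2 and 3, and the control lungs.

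Rrm2b, the p53-induced subunit of ribonucleotide reductase, had 99.2, 123 and 169 as the lowest, median and highest tumor signal, against 234, 183, 218 and 185 in control lungs, with no overlap (log2 fold change -0.71 ± 0.15, adjusted p = 0.00185). Mdm2, the ubiquitin ligase that degrades p53, had 245, 321 and 682, against 459, 389, 530.0 and 392. In 9 of 10 tumors it was under every control lung, with middle tumor 1 above all of them, and it was not called (log2 fold change -0.39, adjusted p = 0.157). Without middle tumor 1 it was called lower (log2 fold change -0.48, adjusted p = 0.00956), as it was with array weights.

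Of the 48 tested probe sets, 2 (4.17%) had every tumor above every control lung, Aifm1 and Cideb, while this held for 10.4% of the whole array. The opposite held for 5 (10.4%), those of Bnip2, Cflar, Casp4, Capn2 and Rrm2b, and for 12.6% of the whole array. Of the 20 probe sets called over all tumors, 13 kept the call under every alternative that could be run for them. They belong to Cideb, Aifm1, Zmat3, Casp2, Bnip2, Capn2, Anp32a, Fas, Cflar, Rrm2b, Tnfrsf1a and Casp4. Of these, Cideb passed the filter only through tumors and Casp4 only through control lungs. Of the 28 probe sets not called, 11 were called in at least 1 alternative.

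The lower signals of death receptors, Cflar, Casp4, Capn2 and Bnip2 stand beside lower signals of markers of other lung cells. Of 17 tested endothelial markers, 16 were lower in tumors, with a median log2 fold change of -3.19, and their summed signal was 3266 to 4561 in small pools, 2643 to 3981 in middle-sized and 2607 to 2790 in large tumors, against 25596 to 32049 in control lungs. All 5 alveolar type I, all 8 smooth muscle and all 9 cardiac muscle markers tested were lower too, as were 8 of 14 fibroblast, 2 of 4 club cell, 3 of 4 erythroid and 3 of 5 fat cell markers. Of the immune markers, 2 of 5 tested for T and NK cells were lower, and 7 of their 14 on the array, Cd3g, Cd3d and Cd8a among them, were below 70 everywhere. Their sum was 239 to 344 in small pools, 192 to 401 in middle-sized and 214 to 311 in large tumors, against 888 to 1061 in control lungs. Of 12 macrophage markers tested 3 were lower, of 9 neutrophil markers 5 and of 7 B cell markers 4, and none of these was higher. The part of these cell types in the falls was not tested, and in whole tissue fewer cells of a type and less RNA per cell cannot be told apart.

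The rise of Casp2, Aifm1 and the others stands beside the proliferation genes, of which 18 of 20 tested were higher and none was lower, and the part of proliferation in it was not tested. After signals under 70 were set to 70, the highest tumor signal was 2.10 times the lowest at the median of the 48 probe sets and 1.90 times at the median of all 8127. On these floored signals the ratio was 7.90 for Anp32a at 93372_at, 4.16 for Cideb and 4.12 for Bnip2 at 161712_r_at, the highest of the 48.

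Each tumor size was then set against the same 4 control lungs, so the 3 comparisons are not independent. Of the 48 probe sets, the small tumors had 4 higher and 10 lower, the middle-sized tumors 6 and 9, and the large tumors 7 and 9. Over the whole array, the small tumors had 18.7% of probe sets higher and 16.3% lower, the middle-sized tumors 14.6% and 16.2%, and the large tumors 19.2% and 17.8%. Cideb, Aifm1 and Zmat3 were called higher and Bnip2 (93064_at), Capn2, Fas, Cflar, Rrm2b, Tnfrsf1a (92793_at) and Casp4 lower at every size. The log2 fold changes of Bnip2 were -1.28 in small, -1.60 in middle-sized and -1.77 in large tumors, and those of Aifm1 were 1.16, 0.85 and 1.25. Of the calls by size, 7 of 14 in small, 5 of 15 in middle-sized and 9 of 16 in large tumors were kept under every alternative. In large tumors the call of Cideb was lost without large tumor 3 (adjusted p = 0.0523), and those of Rrm2b (adjusted p = 0.0524) and Tnfrsf1a (adjusted p = 0.139) were lost without large tumor 2. That of Tnfrsf1a was also lost without large tumor 3 or control lung 1 or 2, and that of Casp4 without any 1 of the large tumors (adjusted p 0.0512 to 0.0541). At the other sizes, Tnfrsf1a lost its call in small tumors without small pool 2 or 3 or control lung 1 or 2 (adjusted p up to 0.112) and in middle-sized tumors without middle tumor 2 or 4 or control lung 1 or 2 (adjusted p up to 0.0855). Casp4 lost it in small tumors without any 1 of the small pools (adjusted p up to 0.0609), and Rrm2b in middle-sized tumors without middle tumor 2 (adjusted p = 0.0522).

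**Figure D3:**
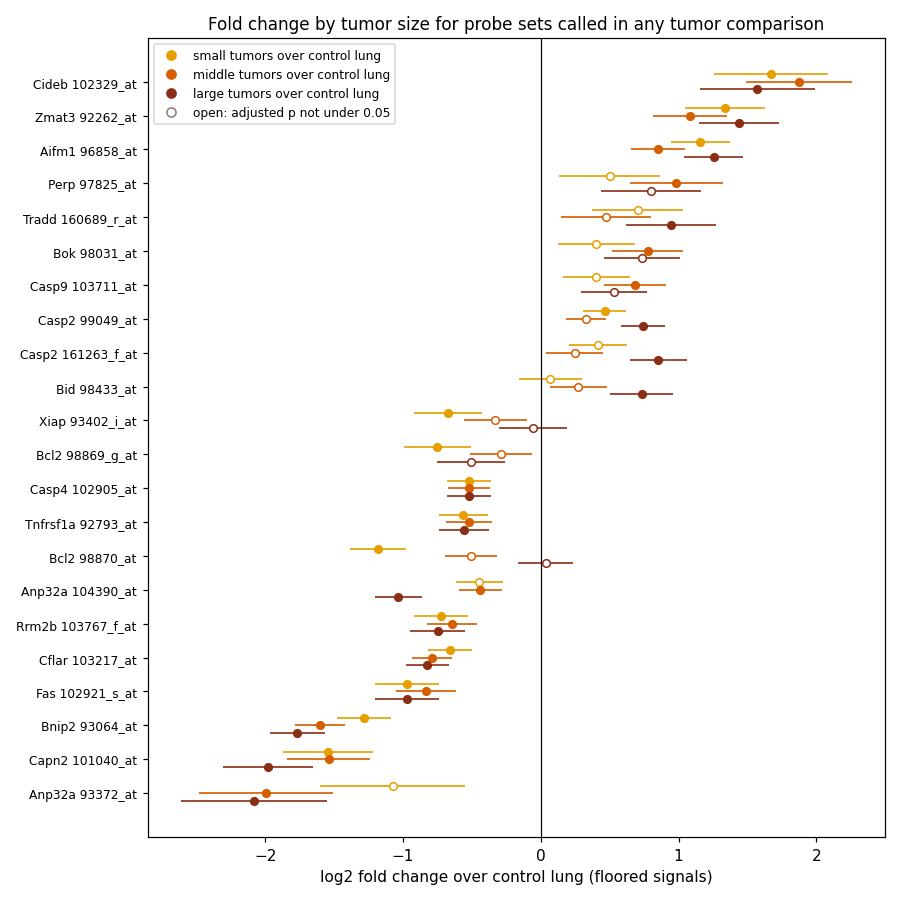
Log2 fold change over control lung (horizontal axis, signals set to at least 70) in small, middle-sized and large tumors for the 22 probe sets called in any comparison with control lung, with bars of ±1 standard error. Filled points had an adjusted p under 0.05. Bcl2 at 98870_at runs from -1.18 in small tumors to 0.04 in large tumors.

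Some members were called at 1 size only. Bok, Perp and Casp9 (103711_at) were called higher in middle-sized tumors only. Their log2 fold changes there were 0.77, 0.98 and 0.69 (adjusted p = 0.0334, 0.0397 and 0.0311). These calls were lost in 9 of 28, 12 of 28 and 7 of 27 alternatives. Tradd and Casp2 (161263_f_at) were called higher in large tumors only, by 0.94 and 0.85 (adjusted p = 0.0371 and 0.00569). The call of Tradd was lost in 12 of 28 alternatives and that of Casp2 in 0 of 27. Bcl2 at 98870_at was lower in small tumors, by a log2 fold change of -1.18 ± 0.20 (adjusted p = 0.000482) that every alternative kept. It was -0.51 (adjusted p = 0.0524) in middle-sized and 0.04 (adjusted p = 0.912) in large tumors. Xiap at 93402_i_at, a direct inhibitor of caspases, had -0.67 in small tumors (adjusted p = 0.0451), with the call lost in 14 of 28 alternatives, -0.33 in middle-sized and -0.05 in large tumors. Bid had a log2 fold change of 0.73 (adjusted p = 0.0205) in large tumors, 0.27 in middle-sized and 0.07 in small tumors. The Bid signals were 90.6, 119 and 164 in large tumors, against 68.2, 82.3, 39.9 and 47.1 in control lungs. The call of Bid was lost without large tumor 2 (adjusted p = 0.0501) or large tumor 3 (adjusted p = 0.109). Bcl2 at 98869_g_at was called lower in small tumors only (log2 fold change -0.75, adjusted p = 0.0283), and 9 of 27 alternatives lost the call. Casp2 at 99049_at was called higher in small and large tumors, but not in middle-sized tumors (adjusted p = 0.107). Both probe sets of Anp32a were called lower in middle-sized and large tumors only. At 104390_at the call in middle-sized tumors was borderline (log2 fold change -0.44, adjusted p = 0.049) and was lost in 16 of 28 alternatives. In small pools their adjusted p was 0.0569 (104390_at) and 0.132 (93372_at).

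Whether the sizes differ from each other was tested directly. No member was called in small against large, small against middle-sized or middle-sized against large tumors by limma, and no probe set of the whole array was (0% higher and 0% lower in each). At an unadjusted p under 0.05 there were 5, 4 and 5 of the 48 probe sets in these 3 comparisons, 10.4%, 8.33% and 10.4%, beside 8.0%, 6.19% and 9.99% of the array. The methods' t-test on the same values counted 4, 4 and 3 at that unadjusted threshold. The lowest adjusted p belonged to Bcl2 at 98870_at, singled out after its values were seen. Its signals of 88.8 to 125 in small pools lay under the 233 to 271 of large tumors (log2 fold change -1.22 ± 0.21, adjusted p = 0.084). It passed the threshold with array weights (0.0112) and without middle tumor 1 (0.0402) or 4 (0.0281), which enter only through the pooled spread. Probe set 98869_g_at of Bcl2 gave -0.25 ± 0.26 (adjusted p = 0.843) in the same comparison.

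**Figure D4:**
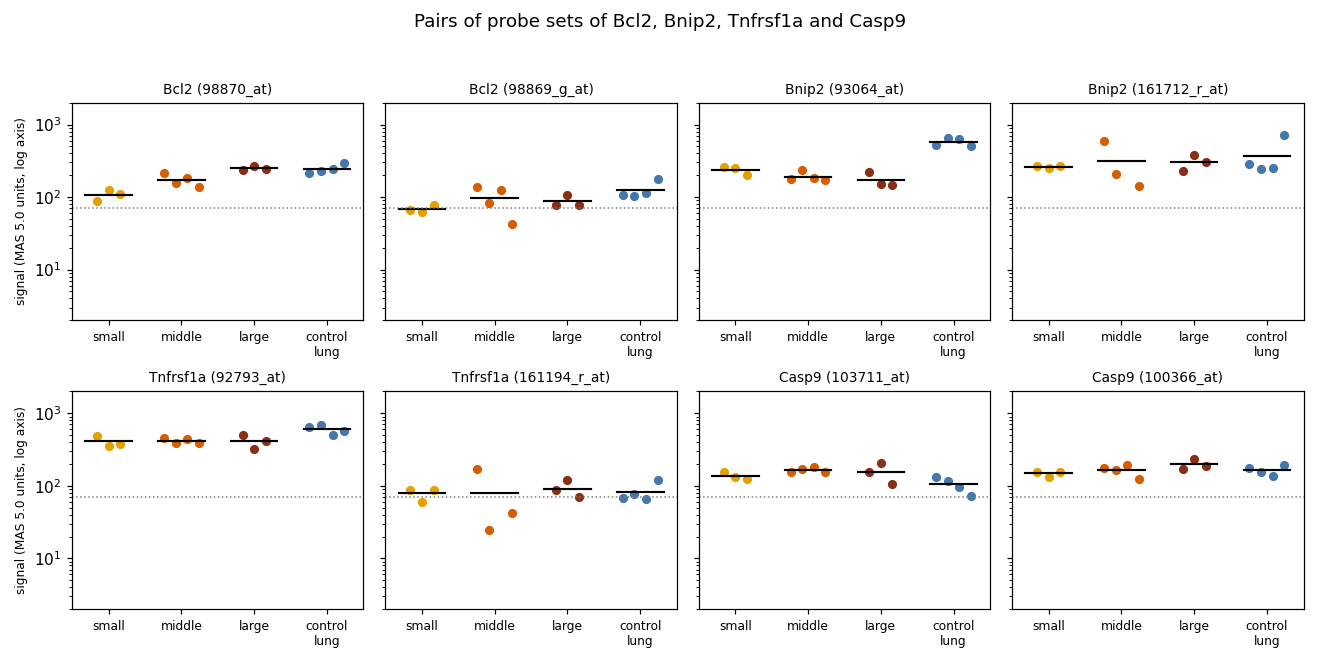
Signals (vertical log axis, MAS 5.0 units) on each array for pairs of probe sets of Bcl2, Bnip2, Tnfrsf1a and Casp9, with tumors by size left of control lung, group means as bars and the limit of 70 dotted. The Bnip2 points of tumors lie below 262 and those of control lung above 507 at 93064_at, while they overlap at 161712_r_at.

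Other genes of the pathway, from a list of 61 further apoptosis genes, were counted in the same way by the probe set with the highest mean. Of 40 tested, 9 were higher in all tumors, 7 were lower and 24 were not called, with a median log2 fold change of 0.01. Over the whole array 22.7% of all probe sets were higher and 20.8% were lower. The largest changes were those of the receptor-associated factors Traf4 (846 ± 163 in tumors and 182 ± 18.3 in control lungs, SD, log2 fold change 2.20, adjusted p = 9.05e-08) and Traf5 (63.3 ± 46.4 and 345 ± 34.6, log2 fold change -2.02, adjusted p = 2.52e-06), and of Hspa9, a mitochondrial chaperone (log2 fold change 1.43, adjusted p = 2.44e-05). Tnf, Prf1, Hrk and Cidec were below 70 on every array. Of 20 tested further genes linked to p53, 4 were higher, 5 were lower and 11 were not called, again beside those shares of the array. Not all of them respond to p53: the study describes Hey1 and Hspa9, which is on both lists, as acting on it. The largest changes were falls of the transcription factor Klf4 (118 ± 42.6 in tumors and 1148 ± 337 in control lungs, log2 fold change -3.30, adjusted p = 9.05e-08), of the growth arrest gene Gas1 (log2 fold change -2.28) and of the transcriptional repressor Hey1 (log2 fold change -2.18). The study had already reported the falls of Klf4, Gas1 and Hey1 in these tumors.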

How the data were processed

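Per the labels, RNA of 10 tumor samples and 4 control lungs was hybridised to Affymetrix Murine Genome U74v2 arrays. The authors deposited MAS 5.0 signals, linear intensity values with a target of 250 per array, which the array of middle tumor 3 does not meet. Near-zero values (under 1e-06) on the array of middle tumor 3 were treated as missing. The filter kept the 8127 probe sets that reached 70 on 3 or more arrays, and these were tested on log2 of the signal set to at least 70, with limma 3.58.1 in R 4.3.3, a model of 4 groups, a moderated variance with trend, and Benjamini-Hochberg adjustment within each of 7 comparisons. The code was tested on simulated data. Alternatives were the floor, scaling, filter, 1 probe set per symbol, robust variance, array weights, a replicate block, the methods' t-test, missing values kept and each array left out. The methods' t-test stands for an unpaired t-test on the same floored log2 signals, without the study's limits on fold change and change calls.

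Every member is accounted for. Values on each array were given for members with an absolute log2 fold change of at least 1, those named as apoptosis genes in the study and those whose probe sets differ in direction, and other called members were added after their values were seen. Gene lists give up to 3 members of largest change, and Birc5 was added because the study names it. The members and lists were chosen with earlier results of these data known. Gene names came from the platform annotation (10833 of 12422 probe sets with 1 symbol, 396 with several, 1193 with none). Of the 47 genes, Bax, Tnfrsf10b, Ripk1 and Trp53 had no probe set analysed here and Bcl2a1a and Bnip3l only ones with several symbols, while Fasl, Casp1, Casp12, Diablo and Dffb failed the filter. No 2 arrays were identical (highest correlation 0.983). The number of arrays limits the precision, and p-values set a difference of group means against the spread between these samples.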

Additional observations from a re-analysis of the deposited data

Results flagged for a closer look

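In 53 groups of 4 arrays examined, 4 held an array far from the other 3, and chance flags about 1 in 20. Control lung 4 had a signal of 288 at probe set 100367_g_at of Casp9, with the other control lungs at 136 to 144. At 161712_r_at of Bnip2 it had 717, with the others at 242 to 281. At 98869_g_at of Bcl2 it had 177, with the others at 104 to 113. All 3 were the highest control lung, and the Bcl2 call at that probe set was lost without this array (adjusted p = 0.166). Middle tumor 2 had 265 at 101040_at of Capn2, with the other middle-sized tumors at 199 to 204, still under every control lung.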

How the results depend on the processing

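Of the 20 probe sets called over all tumors, 13 kept direction and call in every alternative run. The 9 higher probe sets became 5 with no filter, and ranged over 5 to 9 when 1 array was left out (5 without control lung 2). The 11 lower became 17 with array weights, and ranged over 10 to 12. In small tumors the 4 higher became 10 with array weights and 9 by the methods' t-test unadjusted (3 to 5 with 1 array left out), and the 10 lower became 18 with array weights and ranged over 6 to 11 (6 without small pool 2). In middle-sized tumors the 6 higher became 3 with no filter and 1 by the adjusted t-test, and ranged over 3 to 6 (3 without middle tumor 3 or control lung 3). The 9 lower became 5 by the adjusted t-test (7 to 11 with 1 array left out). In large tumors leaving out 1 array gave 5 to 9 higher, beside 7 (5 without large tumor 2 or 3), and 6 to 10 lower, beside 9 (6 without large tumor 2). Between sizes, where limma called 0, the unadjusted t-test gave 2 higher and 2 lower for small against large, 2 and 2 for small against middle-sized, and 1 and 2 for middle-sized against large tumors. Array weights gave 1 lower for small against large, and leaving out 1 array gave 0 to 1. The causes were not tested.

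With no floor the log2 fold change of Cideb was 5.15, and Cidea turned to -1.45 (adjusted p = 0.0241) from signals under 70. Replicate numbers were not taken as pairs, because the study describes the samples as coming from separate animals. For 19 pairs of arrays with the same number the correlation of deviations was -0.235 to 0.113, with 1 over 0.1. With so few arrays a group, these correlations alone cannot settle whether samples are paired. With a replicate block 5 probe sets were higher over all tumors.
Signals near or under 70 limit what can be said of Cidea, Casp1, Casp12 and Fasl, and 3 to 4 arrays a group limit the comparisons between sizes.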
